A study of Homo sapiens with 12 samples.

Results

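The genes described here are 32 zinc finger genes of chromosome 19p12, taken by symbol from a count table of 56638 genes. All 32 symbols were found, and 31 passed the filter on low counts (ZNF99, with 31 counts in all 12 libraries, did not). Poly(A) RNA of NT2/D1 cells, an established line from a human embryonal carcinoma, was sequenced in 4 groups of 3 libraries. Control cells carry a CRISPR/Cas9 control and keep PRMT6, an arginine methyltransferase that modifies histones. Knockout cells carry a CRISPR/Cas9 deletion of PRMT6, and the labels name 1 knockout line. Both genotypes were studied untreated and with all-trans retinoic acid (ATRA, 1 µM for 3 days), which drives NT2/D1 cells toward neural fates. Separate cultures are named in no label, and the p-values below therefore reflect only how these libraries vary, which may be technical.

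Genes of this family encode a KRAB domain followed by an array of zinc fingers. The fingers bind DNA, often inside transposable elements, and the KRAB domain recruits the corepressor TRIM28, which brings the histone methyltransferase SETDB1 and heterochromatin proteins. The 19p12 cluster arose by repeated duplication in primates, so its genes resemble each other in promoter and coding sequence. Pluripotent and embryonal carcinoma cells are known to express many of them.

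The shared origin can be read in the sequence before the start site. RefSeq (GRCh38.p14) promoter entries matched 24 of the 32 genes, and the 250 bases before the start were compared. Over 276 pairs of these windows, a median of 80% of the bases were identical in a pairwise alignment (range 53.2% to 92%). The windows of 3 genes with different behaviour are shown: ZNF486, which was nearly absent from the knockout, ZNF90, which was called lower in the knockout with and without ATRA, and ZNF726, which was not. Capitals mark TCCAATCA, a form of the CCAAT box.
ZNF486, chr19:20166964-20167213, plus strand: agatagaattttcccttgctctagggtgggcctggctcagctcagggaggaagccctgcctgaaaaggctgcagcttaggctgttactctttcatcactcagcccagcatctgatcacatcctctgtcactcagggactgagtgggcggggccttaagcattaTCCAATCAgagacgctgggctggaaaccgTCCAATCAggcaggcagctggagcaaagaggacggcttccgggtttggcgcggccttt
ZNF90, chr19:20077750-20077999, plus strand: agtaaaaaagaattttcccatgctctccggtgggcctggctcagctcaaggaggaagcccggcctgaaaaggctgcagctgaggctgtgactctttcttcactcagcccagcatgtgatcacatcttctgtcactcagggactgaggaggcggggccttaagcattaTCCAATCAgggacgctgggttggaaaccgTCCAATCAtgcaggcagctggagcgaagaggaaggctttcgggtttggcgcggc
ZNF726, chr19:23914636-23914885, plus strand: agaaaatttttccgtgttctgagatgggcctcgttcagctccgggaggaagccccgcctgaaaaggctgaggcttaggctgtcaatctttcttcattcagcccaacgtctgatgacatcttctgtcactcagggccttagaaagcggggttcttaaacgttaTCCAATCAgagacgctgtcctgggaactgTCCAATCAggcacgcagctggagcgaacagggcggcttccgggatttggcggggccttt
All 3 windows held 2 copies of TCCAATCA. The ZNF486 and ZNF90 windows were identical at 90.4% of the bases, and ZNF486 and ZNF726 at 83.6%. TCCAATCA was chosen because it was common in these promoters, and it was searched on both strands. It was present in 24 of 24 members, in 1.79% of 27305 genes with a promoter entry, and in 19 of 34 genes of the 19p13.2 zinc finger cluster, 1 of 32 at 19q13.41 and 0 of 16 at 19q13.31. ZNF486, ZNF90 and ZNF726, with different values in the knockout, thus shared this motif. A match is a description, not evidence of binding. No promoter entry was matched for ZNF98, ZNF99, ZNF253, ZNF506, ZNF676, ZNF728, ZNF729 and ZNF738.

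Library totals ran from 25469900 to 60394900 counts (rounded to 6 digits), and 3 counts in a library equal 0.0433 to 0.128 CPM (a gene's counts scaled to the library's total, with edgeR's scaling factors). PRMT6 stood at 22.4, 1.94 and 8.94 CPM in the untreated control and at 29.9, 15.9 and 26.8 CPM in the control with ATRA, against 0 to 0.0587 CPM in the 6 knockout libraries. In the knockout, libraries ATRA 1 and 3 were nearly identical, as were untreated 1 and 2 (chi-square per gene 1.91 and 9.01). All other pairs within a group had values of 78.1 to 416, so knockout untreated 3 and knockout ATRA 2 stand apart. All 12 pluripotency markers averaged at least 1 CPM in both untreated groups, with summed levels of 5533 to 8229 CPM in the control and 5383 to 8724 CPM in the knockout. Of the 12, SOX2 and LIN28B were called lower in the untreated knockout (from 206 to 59.0 CPM and from 48.5 to 16.1 CPM on average, edgeR adjusted p = 0.00736 and 0.0181), and in 4 of 12 all knockout libraries lay below all control libraries. Of all genes tested, 21.9% were called lower and 27% had all knockout libraries below all control libraries, so both counts are near the background. The 10 fibroblast and stromal markers summed to 449 to 543 CPM in the untreated control and 2248 to 13918 CPM in the untreated knockout, none of them at 0. Most of the knockout sum was COL3A1 (10570, 10915 and 1319 CPM) and COL1A1 (2031, 2268 and 494 CPM). Of the 10, 6 were called higher, 1 lower (PDGFRA, from 7.42 to 2.57 CPM on average) and 3 neither, beside 13% and 21.9% of all genes tested. The part of these markers in the results below was not tested. In bulk RNA, fewer cells of a type and less RNA per cell cannot be told apart. Expression also leaned on base composition differently in the genotypes. Across genes, the rank correlation of a library's expression (relative to the mean of all libraries) with transcript GC content was -0.38 to -0.22 in the untreated control and 0.32 to 0.48 in the untreated knockout.

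As a group, the 19p12 genes were lower in the untreated knockout, and none was called higher. Of 31 tested genes, 24 fell and 7 were not called (edgeR adjusted p under 0.05), where 21.9% of all genes tested were called lower and 13% higher. The median log2 fold change of the 31 genes was -1.58, beside -0.11 over all genes tested, and 30 of 31 values were below 0. In 21 of the 31 genes every knockout library lay below every control library, which held for 27% of all genes tested. Summed over the 32 genes, the level was 201, 474 and 344 CPM in the control libraries and 130, 119 and 140 CPM in the knockout libraries, so the groups did not overlap. Fitted changes of the called genes ran from 1.88-fold for ZNF714 to 5.98-fold for ZNF90, apart from 4 genes near 0 in the knockout that are described next. The number of calls was 13 without control untreated 2, 14 without control untreated 3, 13 without knockout untreated 1 and 10 without knockout untreated 2. It was 13 without both knockout libraries that stand apart, and 2 (ZNF90 and ZNF486) when near-identical libraries were summed. With each library's trend of expression with GC content removed, as described further on, 4 genes were called lower and ZNF726 higher.

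**Figure D1:**
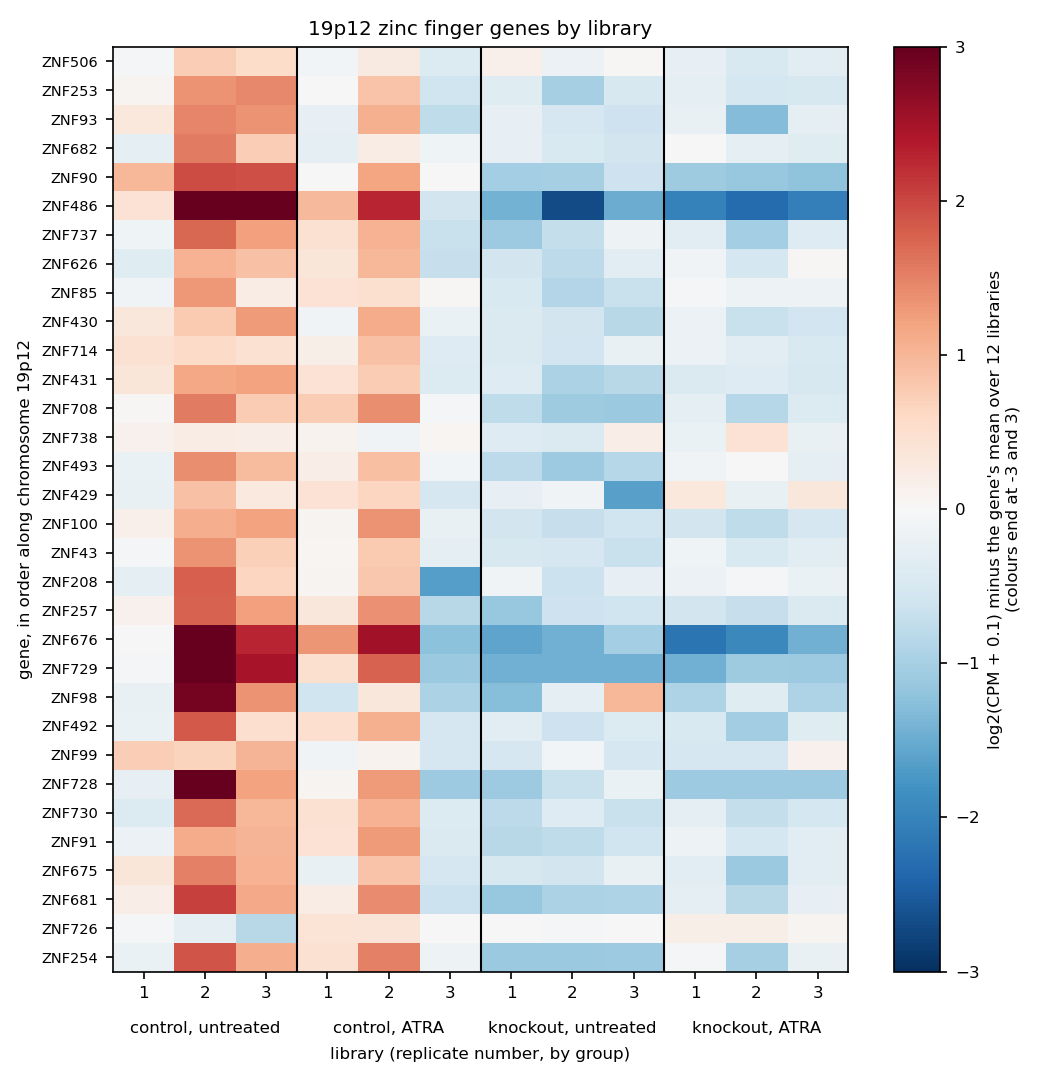
Levels of the 32 genes in the 12 libraries, in order along the chromosome (RefSeq order), as log2(CPM + 0.1) minus the gene's mean over the libraries. Colour runs from low (blue) to high (red) and ends at -3 and 3. Most genes were high in control untreated 2 and 3 and control ATRA 2, and low in control ATRA 3 and in the 6 knockout libraries.

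A few members were close to absent from the knockout. ZNF486 stood at 0.774, 20.4 and 9.34 CPM in the untreated control and at 0.141, 0 and 0.128 CPM in the untreated knockout. Each control library was above each knockout library, although control 1 lay far below control 2 and 3. The fitted decrease was 113-fold (log2 fold change -6.83 ± 1.28 SE, edgeR adjusted p = 0.00439). ZNF676 stood at 0.614, 18.9 and 3.40 CPM in the control and 0.141, 0.164 and 0.257 CPM in the knockout. It fell by 5.35 ± 1.26 SE on the log2 scale (edgeR adjusted p = 0.00925), again with a wide spread among control libraries. ZNF729 had 421 counts in the untreated control (0.16, 5.6 and 1.40 CPM) and none in the untreated knockout. Taking 3 counts over the group as the floor, ZNF729 was at least 70.7-fold lower in pooled counts (edgeR adjusted p = 0.00981). Control untreated 2 held 318 of the 421 counts and control untreated 1 held 6, so this bound rests mostly on control untreated 2. ZNF728 had 211 counts in the control and 3 in the knockout, a ratio of control to knockout of 35.4 (95% counting interval 12 to 173, which covers counting error only). It was called (edgeR adjusted p = 0.0378), but its libraries overlapped, since control 1 stood at 0.0801 CPM and knockout 3 at 0.0856 CPM. Control untreated 2 alone, at 3.19 CPM, supplied most of the ZNF728 counts.

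In RefSeq order, ZNF676 and ZNF729 lie next to each other at places 21 and 22 of 32, and ZNF728 is at 26. Between them lie ZNF98, ZNF492 and ZNF99. ZNF98 was low in every group (0.107, 1.69 and 0.519 CPM in the untreated control, 0, 0.0982 and 0.385 CPM in the knockout) and was not called (edgeR adjusted p = 0.103). ZNF99 had 25 counts in the untreated control and 1 in the knockout, a ratio of 12.6 (95% counting interval 2.06 to 517). ZNF492, in the middle of this stretch, was present in the knockout (edgeR adjusted p = 0.0498, log2 fold change -1.48 ± 0.54 SE). ZNF486 lies away from them at place 6, beside ZNF90. At places 21 to 26 only ZNF492 averaged more than 1 CPM in the untreated knockout (1.34 CPM). ZNF676, ZNF729, ZNF98, ZNF99 and ZNF728 averaged 0 to 0.187 CPM there. ZNF486, by contrast, lay between ZNF90 and ZNF737, which averaged 4.66 and 1.52 CPM in the untreated knockout.

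**Figure D2:**
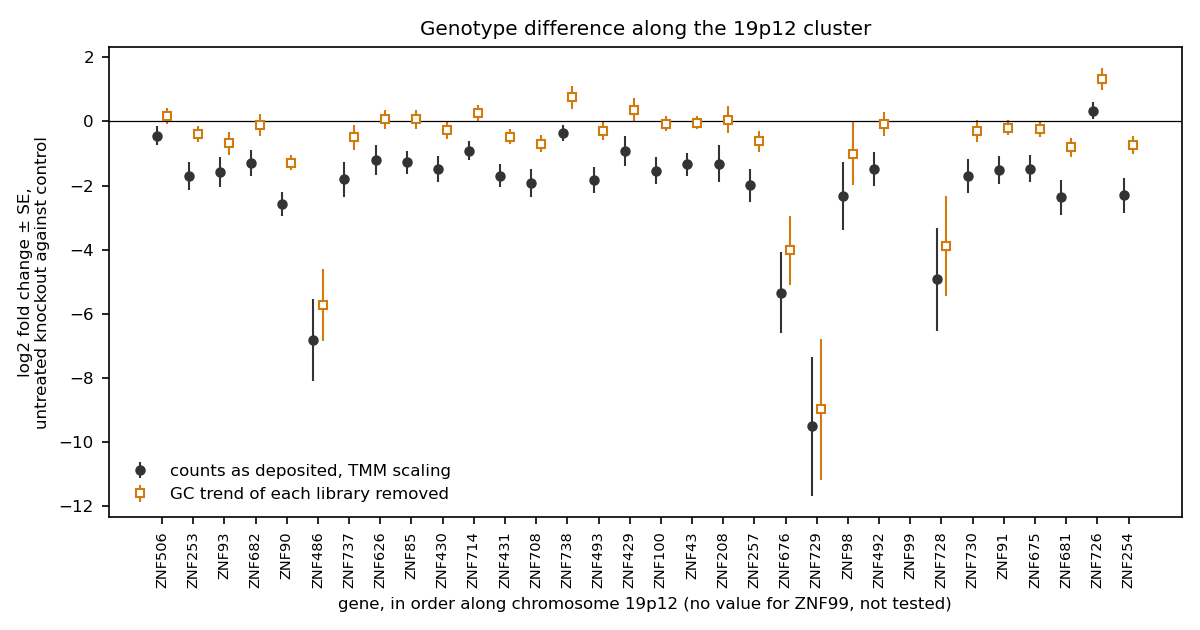
Log2 fold change ± SE of each gene in the untreated knockout against the untreated control, by place along 19p12, from the counts as deposited (filled) and after each library's GC trend was removed (open). ZNF486, ZNF676, ZNF729 and ZNF728 lie far below the other genes in both; the fitted value of ZNF729 rests on 0 knockout counts and is not a bound.

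ZNF90 had the smallest p of the cluster and was well expressed. It stood at 17.3, 33.4 and 32.8 CPM in the untreated control and at 4.18, 4.22 and 5.57 CPM in the untreated knockout (27.8 ± 9.14 against 4.66 ± 0.788, SD, n = 3 each). The groups were clearly separated, and ZNF90 fell 5.98-fold (log2 fold change -2.58 ± 0.38 SE, edgeR adjusted p = 0.00248). ZNF681 and ZNF254, neighbours of ZNF726 at the far end of the cluster, fell by 2.37 ± 0.56 and 2.31 ± 0.54 SE on the log2 scale (edgeR adjusted p = 0.009 and 0.00872). ZNF254 stood at 5.87, 25.6 and 14.6 CPM in the control and at 3.09, 3.08 and 3.13 CPM in the knockout. ZNF681 stood at 4.35, 16.1 and 8.48 CPM against 1.69, 1.93 and 1.97 CPM. In both genes the knockout libraries were tightly grouped and the control libraries differed by more than 3-fold. Neither ZNF681 nor ZNF254 was called with the GC trend removed (log2 fold change -0.80 and -0.73, edgeR adjusted p = 0.0797 and 0.0822).

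ZNF93, which represses a set of LINE elements, stood at 12.7, 28.4 and 26.2 CPM in the untreated control and 8.68, 7.23 and 6.64 CPM in the untreated knockout (log2 fold change -1.58 ± 0.48 SE, edgeR adjusted p = 0.0242). ZNF91, which represses SVA elements and was chosen after its values were seen, stood at 7.02, 17.3 and 16.4 CPM against 4.43, 4.65 and 5.22 CPM (log2 fold change -1.51 ± 0.43 SE, edgeR adjusted p = 0.0184). Neither pair of groups overlapped. With the GC trend removed neither gene was called (log2 fold change -0.68 and -0.19, edgeR adjusted p = 0.195 and 0.582).

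By level per kilobase of gene length, averaged over all 12 libraries, ZNF738 was the highest of the cluster, at 7.96 CPM per kb, followed by ZNF93 at 2.52, ZNF253 at 1.91, and ZNF708 and ZNF714 at 1.71 each. Group means differ by gene, so this order describes the pooled libraries and no single group. ZNF738 stood at 33.2, 35.9 and 35.4 CPM in the untreated control and 23.5, 22.6 and 35.2 CPM in the untreated knockout (log2 fold change -0.36 ± 0.24 SE, edgeR adjusted p = 0.253, and 0.75 with the GC trend removed). ZNF253 (6.30, 15.3 and 16.3 CPM against 4.57, 2.91 and 4.2 CPM) fell by 1.70 ± 0.43 SE on the log2 scale (edgeR adjusted p = 0.012). ZNF708 (6.22, 18.1 and 10.3 CPM against 3.51, 2.81 and 2.74 CPM) fell by 1.93 ± 0.44 SE (edgeR adjusted p = 0.0081). Neither ZNF253 nor ZNF708 was called with the GC trend removed (log2 fold change -0.38 and -0.69, edgeR adjusted p = 0.297 and 0.0915). ZNF714 was even across control libraries, at 17.9, 19.3 and 18.0 CPM, and stood at 9.56, 8.67 and 11.2 CPM in the knockout (log2 fold change -0.91 ± 0.30 SE, edgeR adjusted p = 0.0329), but its value was 0.26 with the GC trend removed.

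The 7 genes not called in untreated cells were ZNF208, ZNF429, ZNF506, ZNF626, ZNF726, ZNF738 and ZNF98. ZNF43, ZNF85, ZNF98, ZNF99, ZNF492, ZNF493 and ZNF726 are named after their values were seen. ZNF726 was the only one of the 31 with a value above 0. It stood at 7.74, 6.53 and 4.41 CPM in the control and 7.84, 7.72 and 8.09 CPM in the knockout. Its log2 fold change was 0.34 ± 0.26 SE (approximate 95% interval -0.17 to 0.85, edgeR adjusted p = 0.316).

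**Figure D3:**
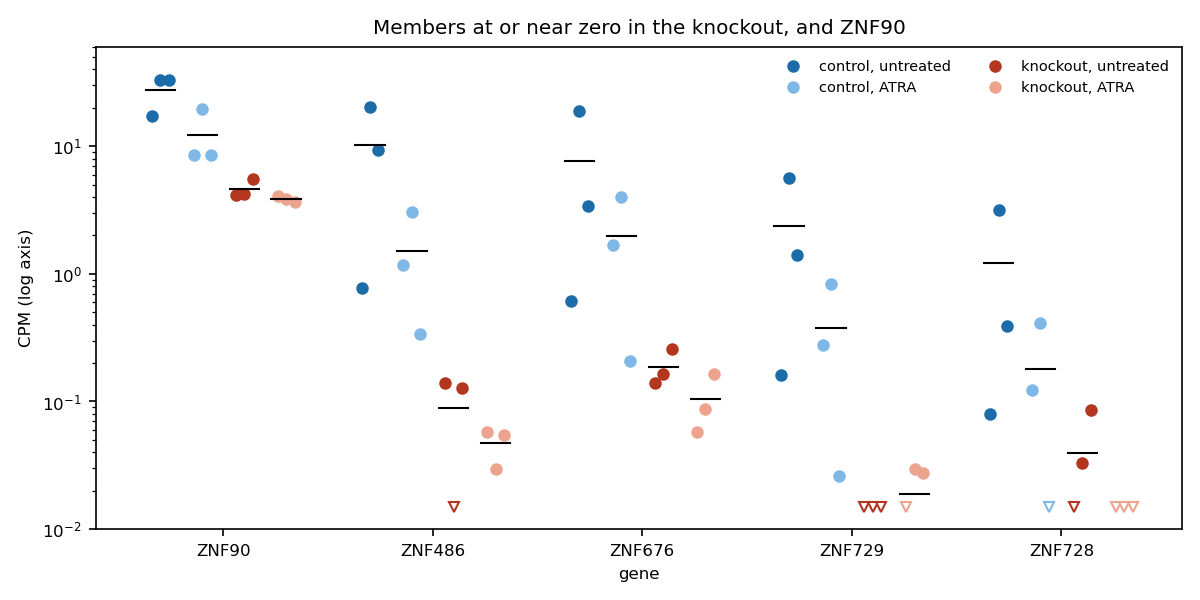
CPM of ZNF90, ZNF486, ZNF676, ZNF729 and ZNF728 in each library on a log axis, with points for libraries, bars for group means and open triangles for libraries without counts. The knockout libraries of ZNF486 lie at or under 0.141 CPM, and control libraries spread from 0.337 to 20.4 CPM.

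The cluster's level also varied widely between control libraries. Of the 32 genes, 26 were highest in control 2 among the untreated control libraries, and 30 were highest in control 2 among those with ATRA. For each library, the median of the 31 tested genes was taken as log2 CPM relative to the gene's mean over all libraries. It was -0.04, 1.51 and 1.05 in the untreated control, 0.30, 1.06 and -0.43 in the control with ATRA, -0.55, -0.70 and -0.61 in the untreated knockout and -0.27, -0.67 and -0.37 in the knockout with ATRA. Control ATRA 3, with 26.8 CPM of PRMT6, was thus within the range of the knockout libraries, with 2 of 31 genes above their own mean. The same library had a GC rank correlation of 0.09, the only positive value among the 6 control libraries. Within the control genotype, ZNF486 and PRMT6 stood at 20.4 and 1.94 CPM in untreated 2, 9.34 and 8.94 CPM in untreated 3, and 0.774 and 22.4 CPM in untreated 1. With ATRA, ZNF486 and PRMT6 stood at 3.07 and 15.9 CPM in control 2, 1.17 and 29.9 CPM in control 1, and 0.337 and 26.8 CPM in control 3. The 3 libraries with the least PRMT6 held the most ZNF486, but the order among the other 3 was not the reverse. This order pools untreated and ATRA libraries and was not particular to ZNF486. Untreated 2, untreated 3 and ATRA 2 also had the highest sums over the 32 genes (474, 344 and 335 CPM, against 151 to 210 CPM). A link to PRMT6 was not tested.

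**Figure D4:**
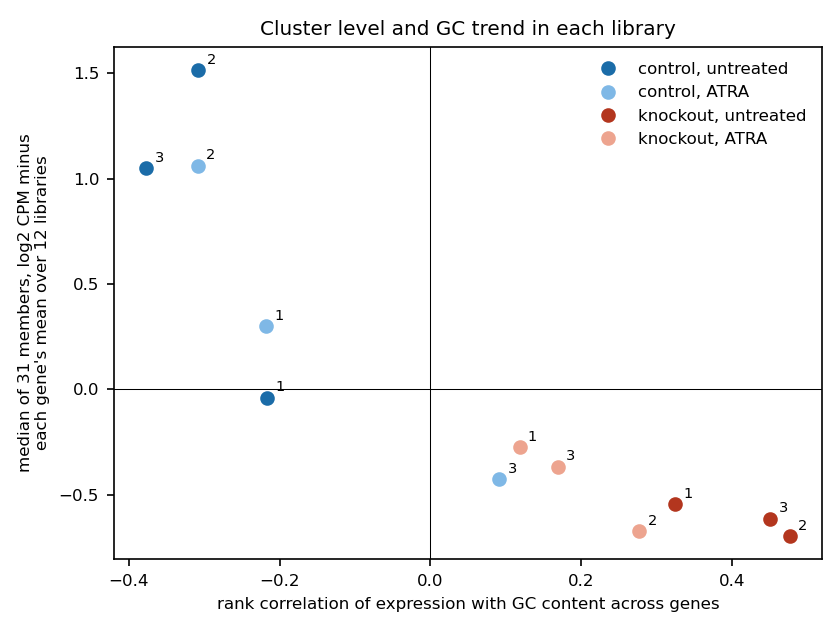
Median level of the 31 tested genes in each library (log2 CPM relative to each gene's mean over the 12 libraries) against the rank correlation of that library's expression with transcript GC content; digits are replicate numbers. The 7 libraries with a positive GC correlation, control ATRA 3 among them, have medians of -0.70 to -0.27.

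The 19p12 genes are poor in GC, and the difference between genotypes was smaller once the GC trend was removed. The median GC content of their longest transcripts was 36.8% (range 33.9% to 43.1%), beside 48.8% over the tested genes with a value, and all 31 lay below that median. With each library's trend of expression with GC content removed, the median log2 fold change of the 31 genes in untreated cells was -0.29, beside -0.01 over all genes (-0.11 before), and 23 of 31 values were below 0. Then 4 genes were called lower, ZNF486, ZNF676, ZNF729 and ZNF90, where 9.16% of all genes were, and 1 was called higher, ZNF726, where 8.43% were. ZNF486 was still 53.5-fold lower and ZNF676 16.3-fold lower by this fit (edgeR adjusted p = 0.00987 and 0.0279), and ZNF90 2.45-fold lower (edgeR adjusted p = 0.00801). ZNF726 rose by 1.32 ± 0.33 SE on the log2 scale in this fit (edgeR adjusted p = 0.0223). ZNF728 was not called (edgeR adjusted p = 0.103), with a log2 fold change of -3.89 beside -4.93 before. Other values shrank, as for ZNF254, from -2.31 to -0.73, and for ZNF43, from -1.34 to -0.04, or turned above 0, as for ZNF85, from -1.28 (called) to 0.065. The GC trend was estimated from the 16377 of 19130 tested genes with a GC value, all 31 members among them. The remaining genes were left uncorrected, so the values over all genes mix both kinds. Biological and technical parts of the trend cannot be told apart here.

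With ATRA, ZNF90 and ZNF486 were the members called lower in the knockout. They were 2 of 31 tested genes, with none higher, where 4.24% of all genes tested were called lower and 3.27% higher. The median log2 fold change of the 31 genes was -0.89, beside -0.06 over all genes, and 30 of 31 values were below 0. ZNF90 stood at 8.52, 19.6 and 8.5 CPM in the control and 4.06, 3.87 and 3.66 CPM in the knockout (log2 fold change -1.66 ± 0.37 SE, edgeR adjusted p = 0.0223). ZNF486 stood at 1.17, 3.07 and 0.337 CPM in the control and at 0.058, 0.0293 and 0.0551 CPM in the knockout (log2 fold change -4.91 ± 1.29 SE, edgeR adjusted p = 0.0392). For both genes every control library was above every knockout library, and with the GC trend removed both were called again (2 members lower and 0 higher, where 3.5% and 3.46% of all genes were). Without control ATRA 2, or without any 1 of the 3 knockout ATRA libraries, 0 members were called, and the median without control ATRA 2 was -0.32. In untreated cells and with ATRA, the knockout is compared with separate control libraries.

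Other members near 0 in the knockout were low there with ATRA too, but were not called. ZNF676 stood at 1.69, 4 and 0.207 CPM in the control with ATRA and 0.058, 0.088 and 0.165 CPM in the knockout (edgeR adjusted p = 0.0591). ZNF729 had 42 counts in the control with ATRA and 2 in the knockout, a ratio of 20.1 (95% counting interval 5.23 to 171, edgeR adjusted p = 0.142). ZNF728 had 20 counts in the control with ATRA, 16 of them in control ATRA 2, and none in the knockout. In pooled counts it was at least 6.38-fold lower (edgeR adjusted p = 0.175). In 6 of 31 genes all knockout libraries lay below all control libraries, where 17.9% of all genes did. ZNF93, at 8.67, 21.6 and 6.04 CPM in the control and 8.75, 4.08 and 8.48 CPM in the knockout, was among those that overlapped (edgeR adjusted p = 0.306).

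ATRA itself moved no member past the test. In control cells 0 of 31 genes were called against untreated cells (7 at an unadjusted p under 0.05, and 1 called by DESeq2), where 0.115% of all genes were called in either direction. An unadjusted p under 0.05 was found for 3961 of all 19130 genes, so 7 of 31 is near that background. The median log2 fold change was -0.54, beside -0.04 over all genes. The smallest p was that of ZNF90 (edgeR adjusted p = 0.106, log2 fold change -1.19 ± 0.36 SE). In knockout cells 0 of 31 were called (0 by DESeq2), beside 0.0314% of all genes, and the median was 0.17. At an unadjusted p under 0.05 there were 0 of 31 members and 2233 of all 19130 genes. The interaction of genotype and ATRA was called for 0 of 31 members (0 by DESeq2) and for 0% of all genes, with a member median of 0.81. At an unadjusted p under 0.05 there were 1 member, ZNF493, and 1868 of all 19130 genes. The smaller genotype difference with ATRA than without it was therefore not shown by a test for any member. Control untreated libraries without replicate 1, or control ATRA libraries without replicate 2, gave 4 calls each for ATRA in control cells.

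Genes of other zinc finger clusters on chromosome 19 fell in the untreated knockout too. Of the tested genes, 23 of 36 at 19p13.2, 12 of 20 at 19q13.31 and 20 of 37 at 19q13.41 fell and none rose, with median log2 fold changes of -1.48, -1.33 and -1.14. Of all genes tested, 21.9% were called lower and 13% higher. ZNF562 at 19p13.2 fell 5.28-fold and ZNF266 2.74-fold, ZNF404 and ZNF222 at 19q13.31 fell 8.67-fold and 3.64-fold, and ZNF816 and ZNF320 at 19q13.41 fell 4.13-fold and 2.54-fold (edgeR adjusted p = 0.00141, 0.00359, 0.0059, 0.0047, 0.00872 and 0.00644). With the GC trend removed these medians were -0.58, -0.41 and -0.45, with 5, 2 and 0 genes lower and 0, 0 and 2 higher. In that fit 9.16% of all genes were called lower and 8.43% higher. The 19p12 median was then -0.29, closer to 0 than in each of the other clusters. Among the tested genes of these other clusters, the largest decrease was a log2 fold change of -3.12, for ZNF404. ZNF486, ZNF676, ZNF728 and ZNF729 lay below -4.9 by the fit, and the lowest value over all genes tested was -12.3. With ATRA, 3 of 36, 0 of 20 and 0 of 37 genes of these clusters were called lower, ZNF562 and ZNF699 at 19p13.2 among them (3.72-fold and 2.93-fold, edgeR adjusted p = 0.00491 and 0.0283). Of all genes tested, 4.24% were called lower with ATRA.

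**Figure D5:**
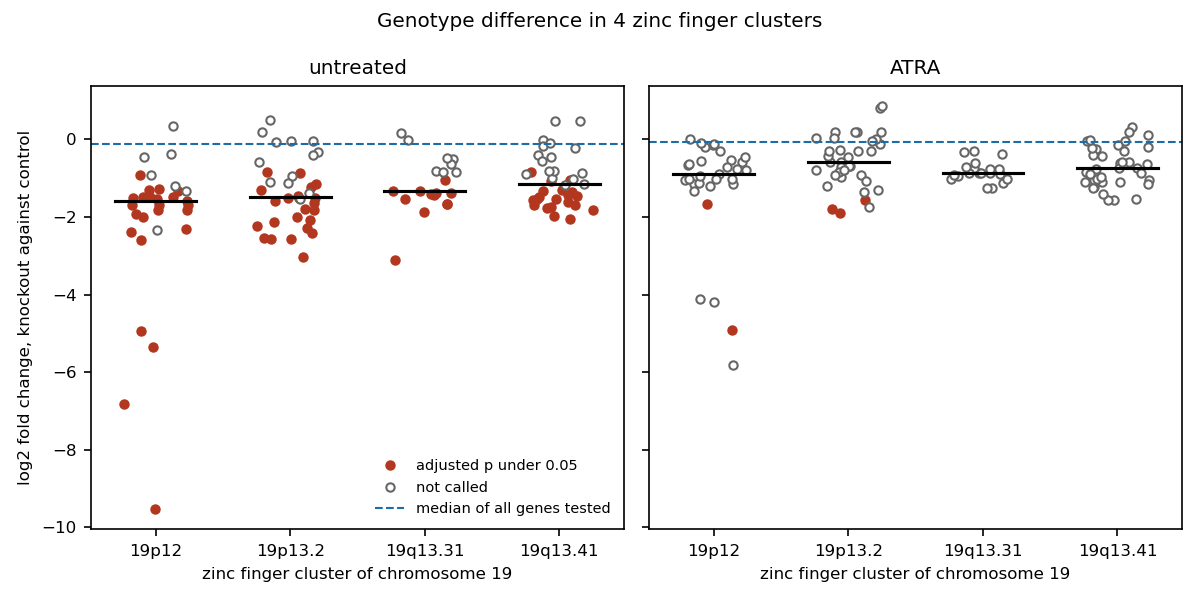
Log2 fold change of knockout against control for each tested gene of 4 zinc finger clusters of chromosome 19, untreated (left) and with ATRA (right), with bars at the cluster medians and a dashed line at the median of all genes tested. In untreated cells the medians lie between -1.58 and -1.14, and only 19p12 holds values below -4.

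KRAB proteins repress through a set of partner proteins. The list used holds such partners, general chromatin factors such as EHMT1 and UHRF1, and the KRAB zinc finger genes ZFP57 and ZNF445. Of its 23 tested genes, 7 were called lower and 1 higher in the untreated knockout, beside 21.9% and 13% of all genes tested. The share called lower, 30.4%, is near that background, and the median log2 fold change was -0.03. TRIM28, the corepressor bound by the KRAB domain, stood at 447, 243 and 401 CPM in the control and 401, 440 and 596 CPM in the knockout (log2 fold change 0.40 ± 0.26 SE, edgeR adjusted p = 0.248). SETDB1, which deposits the repressive histone mark, was not called (edgeR adjusted p = 0.994, log2 fold change -0.003, approximate 95% interval -0.51 to 0.50). CBX3, a heterochromatin protein, fell 3.51-fold, from 84.0, 283 and 192 CPM to 56.4, 50.5 and 52.1 CPM (edgeR adjusted p = 0.00557). PPHLN1, a subunit of the HUSH silencing complex, fell 2.17-fold, from 52.2, 42.2 and 51.2 CPM to 24.0, 19.2 and 23.9 CPM (edgeR adjusted p = 0.00525). FAM208A and MPHOSPH8, the other subunits of that complex, fell by 1.58 and 0.97 on the log2 scale (edgeR adjusted p = 0.0174 and 0.0323), and CHD3, a remodeller bound by TRIM28, rose 2.42-fold (edgeR adjusted p = 0.0132). TRIM28, SETDB1, FAM208A, MPHOSPH8, CHD3, SOX2 and LIN28B were chosen after their values were seen. With the GC trend removed 0 of the 23 were called in untreated cells. With ATRA 0 were called from the counts as deposited (8 at an unadjusted p under 0.05, beside 5376 of all 19130 genes). With ATRA and the trend removed, 1 was called lower, where 3.5% of all genes were.

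Near-identical sequence limits how reads can be assigned among these genes. A median of 24% of the 31-base words of a member's longest transcript also occurred in a transcript of another gene (GENCODE v44), from 8.96% for ZNF682 to 70.5% for ZNF98. The shares were 24% for ZNF486, 14.6% for ZNF90, 34.7% for ZNF676, 35.5% for ZNF729, 29.5% for ZNF728, 45.9% for ZNF492 and 40.2% for ZNF738. How reads with several matches were counted is not given in the sources used here, so values of single members are uncertain to that extent.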

How the data were processed

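Per the labels' protocols, the libraries came from a strand-marking poly(A) kit (TruSeq stranded mRNA). The authors deposited raw counts per gene, 1 column per library, with a gene length. The submitters' processing notes name bcl2fastq, TopHat2, featureCounts, Subread and DESeq2, and the builds hg19 and GRCh37. The sources used here do not give versions, annotation release, strand setting or the handling of multi-mapping reads, so overlapping and antisense genes may share reads. All 12 columns matched 1 sample each.

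Genes were kept with filterByExpr (minimum count 10), leaving 19130, scaled by TMM, and fitted with 1 coefficient per group over the 12 libraries in edgeR 4.0.16 under R 4.3.3 (quasi-likelihood F-test, Benjamini-Hochberg over all genes tested, called under 0.05). Levels are CPM. Ratios on 1 to 3 counts carry exact counting intervals, and groups at 0 are bounded with 3 counts over the group. On data simulated for the untreated genotype comparison (19039 genes), edgeR recovered 46% of 4-fold and 7% of 2-fold changes with 3 false calls, and DESeq2 73% and 27% with 29. The simulation drew libraries independently from a shared mean profile, without the GC trends or near-identical libraries seen here. Its rates of recovery and false calls therefore do not carry over to these data.

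The members, lists and rules were chosen with earlier results of these data known. Values per library are given for members called at a log2 fold change of at least 2 without overlap, the 5 highest per kilobase, and those under 10 counts in a group and at least 1 CPM in another. The 2 called genes with the smallest p are named for each other list. GC content came from GENCODE v44 transcripts (GRCh38) for 85.6% of tested genes, matched by symbol or RefSeq synonym. Its trend per library (lowess) was removed as an offset, a setting added after the data were seen. Other settings were RLE scaling, DESeq2 1.42.0, limma-voom 3.58.1, 2 filters, fits of the compared groups, a replicate block, a minimum fold, and libraries left out or summed. Same-numbered libraries did not deviate together in every pair (correlations of -0.49 to 0.39), so the numbers were not taken to pair them.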

Additional observations from a re-analysis of the deposited data

How the results depend on the processing

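The count of members called lower in untreated cells, 24, was 18 to 26 under RLE scaling, DESeq2, limma-voom, either filter and a fit of the compared groups, and the members called there were among the 24 except ZNF626 by DESeq2 and ZNF626 and ZNF98 without a filter. It was 2 with a minimum log2 fold change of 1, 2 with the near-identical knockout libraries summed, 13 without both knockout libraries that stand apart, and 5, 1 of them higher, with the GC trend removed. With 1 library left out it ran from 10 to 27. Without both control libraries numbered 2, an added setting, it was 19. For the genotype comparison with ATRA, the 2 calls became 7 by DESeq2, 6 without a filter, and 1 by limma-voom, in a fit of the compared groups and without both control libraries numbered 2. They became 0 with a minimum log2 fold change of 1, with near-identical libraries summed and without both knockout libraries that stand apart, and 0 to 5 with 1 library left out. For ATRA in control cells, 0 calls became 1 by DESeq2, 3 without a filter, 1 without both control libraries numbered 2, and 0 to 4 with 1 library left out.

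With the replicate block the members called numbered 21 in untreated cells and 1 with ATRA (ZNF90), and 0 in the other comparisons. The block left an adjusted p over the threshold for ZNF486 with ATRA.

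Removing the GC trend turned the log2 fold change above 0 for 7 members in untreated cells: ZNF714 (0.26), ZNF506 (0.18), ZNF738 (0.75), ZNF85 (0.065), ZNF626 (0.068), ZNF429 (0.37) and ZNF208 (0.058). With ATRA it did so for ZNF714 (0.014), ZNF506 (0.035), ZNF726 (0.39), ZNF253 (0.012), ZNF208 (0.57), ZNF429 (0.49), ZNF682 (0.36), ZNF493 (0.099), ZNF85 (0.081), ZNF626 (0.078) and ZNF43 (0.048). ZNF738 with ATRA, near 0, was -0.016 by limma-voom, -0.24 without both knockout libraries that stand apart, -0.045 without both control libraries numbered 2, and -0.24 to 0.13 with 1 library left out. ZNF90 and ZNF486 stayed called in untreated cells under all 24 settings run, with adjusted p up to 0.0408 and 0.043. Depth limits ZNF98, ZNF99, ZNF728 and ZNF729, which have few counts. The causes of these changes were not tested.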
